A study of Homo sapiens with 4 samples.

Results

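Zinc finger gene clusters of chromosome 19 were examined as the promoter-tiled design regions whose probes start in 5 windows of that chromosome. Regions with at least 5 probes inside a window were kept. From the first to the last probe, they span positions 19600017 to 24062267 (cluster A), 41409487 to 43090169 (cluster B), 49000139 to 49698474 (cluster C), 57082509 to 58827270 (cluster D) and 61569119 to 63779038 (cluster E). This gave 186 regions, of 18010 on the whole array: 27 in cluster A, 26 in B, 21 in C, 41 in D and 71 in E. The rest of chromosome 19 gave 1011 regions. Each region is named here by its cluster and its order along it, so that A21 is the region numbered 21 in cluster A.

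The measurement is ChIP-chip, in which DNA recovered by immunoprecipitation is labelled and hybridised to an array of short probes. The cells were a stable derivative of HEK293, an established line from human embryonic kidney, that makes the HA-tagged transcription factor RPF-1 when tetracycline is withheld. Each of 4 arrays compared induced cells (Tet-, 48 h without tetracycline, Cy5) with uninduced cells of the same line (Tet+, 48 h with tetracycline, Cy3), both precipitated with anti-HA antibody from chromatin sheared to 500 bp on average. The comparison asks where DNA recovered with the tagged factor exceeded that recovered from uninduced cells. The labels give preparation numbers for arrays 2 to 4 (Tet- 4, 10 and 13, Tet+ 3, 7 and 9) and none for array 1. Neither the number of clones behind the line nor separate cultures are stated, so the p-values cover array-to-array spread only, which may be technical. The same dye marked induced cells on all 4 arrays, so a dye effect and an induction effect cannot be told apart.

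Zinc finger proteins of the KRAB class are DNA-binding proteins in which an array of C2H2 zinc fingers reads the DNA and a KRAB domain recruits a corepressor. Their genes arose by repeated tandem duplication and lie in clusters, many of them on chromosome 19, where neighbours keep similar sequences. Many of these proteins bind and silence transposable elements. RefSeq (GRCh38.p14) lists 538 protein-coding genes with a ZNF or ZFP symbol, 255 of them on chromosome 19. On that chromosome it gives 18 runs of 5 or more neighbouring genes of this kind, so the 5 windows need not hold all of them. The array files name no genes and no genome build. Their last probe on chromosome 19 ends at 63779038, beyond the last gene of that chromosome in RefSeq GRCh38.p14 at 58599484, so that annotation was not placed on them. The windows were chosen on the NCBI36/hg18 scale, and that the regions in them belong to zinc finger genes was not tested. Whether the rest of chromosome 19 also holds zinc finger genes was not tested either, so differences from it compare positions only. Regions are therefore given by position, with no gene names, exons or sequences.

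The clusters differed from the rest of the chromosome in how they could be tiled. Each probe carries a field named count, read here as the number of genomic places it matches. A probe is called single-match where this field is 1. Of the 3383 cluster probes, 12.9% had a count above 1, against 6.67% of 19256 probes in the rest of chromosome 19. The share was 26.1% in cluster A, 24.5% in D, 9.64% in C, 7.25% in E and 2.88% in B. The highest count in the clusters was 36, in cluster A. Probes of the shortest length, 50 bases, made up 64.4% of the cluster probes and 85.8% of those elsewhere on the chromosome. Neighbouring regions started a median of 103 kb apart in cluster A, 45.3 kb in B and 25.6 kb in E, against 28.2 kb in the rest. In 92 of the 186 regions every probe was single-match, in 73 fewer than 50% of the probes matched several places, and in 21 at least 50% did. With single-match probes alone, 177 regions still had 5 probes. Those lost were A21, C1, D19, D24, D34, D38, D39, E43 and E44.

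Induced and uninduced cells differed at a minority of the cluster regions, in both directions and by small amounts. The value of a region is the mean log2 ratio of its probes, where 0 means equal signal after each array is centred on its median. A region was called where limma gave an adjusted p under 0.05 over all 18010 regions. In the clusters 28 of 186 regions were called higher in induced cells and 17 lower, and 141 were not called. Over the whole array 13.7% of regions were called higher and 13.5% lower. In the clusters these shares were 15.1% and 9.14%, and in the rest of chromosome 19 they were 15.4% and 12.6%. A called change of at least 0.5 log2 was seen in 4 cluster regions (2.15%), all higher, beside 2.54% higher and 0.894% lower on the whole array. These were B15, D23, E57 and E40. The median region stood at 0.03 in the clusters, 0.01 in the rest of the chromosome and -0.003 on the whole array, on the log2 scale. With single-match probes alone, 21 of 177 cluster regions were called higher and 24 lower, which is 11.9% and 13.6%, beside 11.2% and 14.4% on the whole array. After the mean of each probe length was also subtracted, 25 (14.1%) were higher and 30 (16.9%) lower, beside 15.1% and 16.8%. Of the 28 regions called higher with all probes, 19 were also called with single-match probes, 6 were not and 3 had too few such probes. All 17 called lower were also called lower with single-match probes. By cluster, with all probes, the shares called higher and lower were 7.41% and 14.8% in A, 23.1% and 7.69% in B, 28.6% and 4.76% in C, 14.6% and 7.32% in D, and 11.3% and 9.86% in E. The uncalled regions ranged from A23, at -0.29 ± 0.31, to E23, at 0.28 ± 0.26. Without array 2 the counts with all probes were 11 higher and 2 lower, and without array 4 they were 14 and 4.

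**Figure D1:**
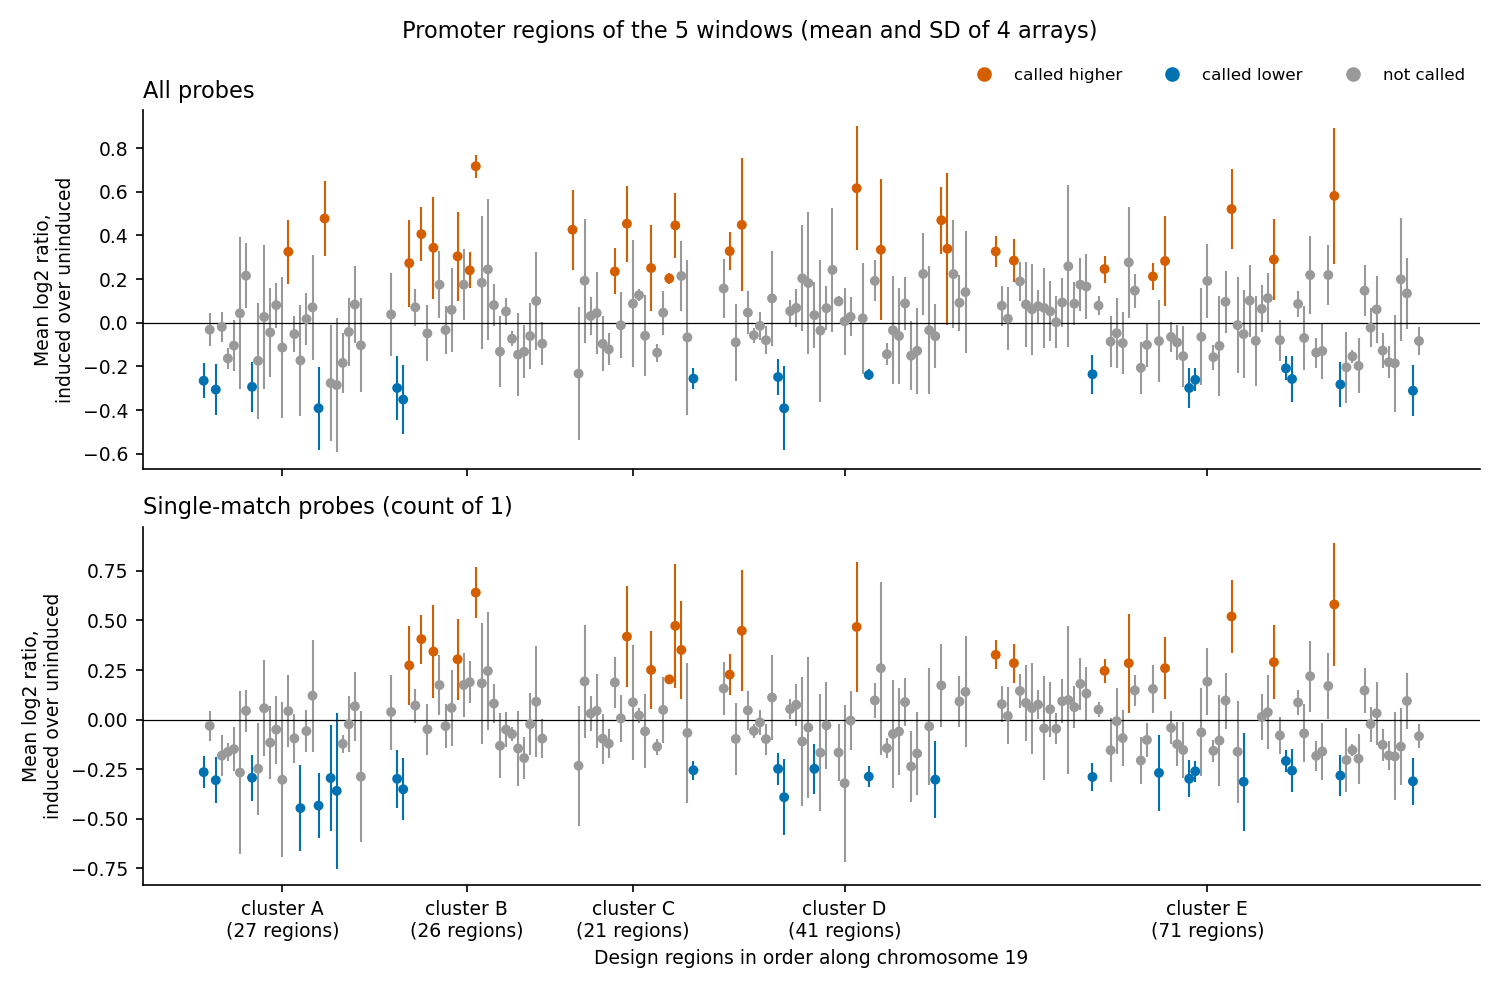
Mean log2 ratio (vertical axis, points) and SD over 4 arrays (bars) of each design region in its order along the 5 windows, with all probes in the upper panel and single-match probes in the lower. Colours mark regions called by limma. Called regions lie among uncalled ones in every cluster, and in cluster A no region is called higher with single-match probes.

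The region with the highest ratio of all 186 was B15, at positions 42392893 to 42395459 of chromosome 19. Arrays 1 to 4 gave 0.695, 0.693, 0.684 and 0.796 over its 12 probes, a spread far smaller than the distance from 0. Its mean was 0.72 ± 0.05 (SD, n = 4; adjusted p = 0.000194, limma), a 1.64-fold excess in induced cells. Its 10 single-match probes gave 0.475, 0.604, 0.750 and 0.735. B15 was called under all 17 alternative settings in which it could be measured.

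The second region of cluster B by size, B6 (41755769 to 41758126), had single-match probes only. Its arrays gave 0.582, 0.299, 0.345 and 0.397, with a mean of 0.41 ± 0.12 (adjusted p = 0.00386, limma). On the lower side, B3 (41600990 to 41603539) gave -0.370, -0.557, -0.301 and -0.181, with a mean of -0.35 ± 0.16. B2 (41561418 to 41564070) gave -0.283, -0.288, -0.492 and -0.134. Both lower regions and B6 are among the first 6 regions of the cluster, so both directions occurred in the same stretch. The other regions called higher were B4, B8, B12 and B14, at 0.24 to 0.34, and B14 was not called with single-match probes. B3 was not called without array 2 or with arrays 3 and 4 alone. B2 was lost under 4 of 17 settings, among them arrays 1 and 2 alone and without array 2. B6 was lost with single-match probes of 50 bases.

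In cluster E, the most densely tiled window, the highest regions had single-match probes only. E57 (63527996 to 63530645) gave 0.643, 0.978, 0.248 and 0.455 over 22 probes, with a mean of 0.58 ± 0.31 (adjusted p = 0.00366, limma). E40 (62951822 to 62954482) gave 0.487, 0.774, 0.335 and 0.485, with a mean of 0.52 ± 0.18. In both regions array 2 was highest and array 3 lowest, and all 4 arrays were above 0. The lowest were E70 (63761647 to 63764296), at -0.31 ± 0.12, and E33 (62801064 to 62803513), at -0.30 ± 0.09. E70 gave -0.179, -0.422, -0.400 and -0.246 in the 4 arrays. The other 6 regions called higher stood between 0.21 (E27) and 0.33 (E1), and the other 5 called lower between -0.28 (E58) and -0.21 (E49). E57 and E40 were called under all 17 alternative settings. E70 and E33 were each lost under 3, without array 2 and without array 4 among them.

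Cluster D had its highest values at regions whose probes partly match elsewhere. D23 (58086426 to 58088287) gave 0.411, 0.957, 0.357 and 0.739 over 11 probes, 7 of them single-match. Its mean was 0.62 ± 0.28 (adjusted p = 0.00242, limma), and 0.47 ± 0.33 over the single-match probes. D37 (58634794 to 58637451) gave 0.298, 0.651, 0.528 and 0.401 over 12 probes. Its 5 single-match probes gave 0.278, 0.302, 0.250 and -0.142, and the region was not called from them (adjusted p = 0.16, limma). The lowest regions were D11 (57490062 to 57492729), at -0.39 ± 0.19, and D10 (57462435 to 57465084), at -0.25 ± 0.08, which are neighbours with single-match probes only. D11 gave -0.283, -0.599, -0.504 and -0.184. D4, with 17 single-match probes and no others, stood at 0.45 (adjusted p = 0.011, limma). The other regions called higher were D2, D27 and D38, at 0.33 to 0.34, and the other called lower was D25, at -0.24. D23 was called under all 16 alternative settings in which it could be measured. D10 was lost under 6 of 17, among them without array 1, without array 2 and without array 4, and D11 was lost without array 2.

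Cluster C held 6 regions called higher and 1 lower. C10 (49266536 to 49268587) gave 0.433, 0.694, 0.281 and 0.405, with a mean of 0.45 ± 0.17 (adjusted p = 0.00344, limma). C18 (49552166 to 49554834) gave 0.274, 0.626, 0.491 and 0.393, and 14 of its 19 probes matched more than 1 place. Its 5 single-match probes gave 0.596, 0.812, 0.070 and 0.414, so that array 3 stood near 0. The lower region was C21 (49695895 to 49698474), with a mean of -0.26 ± 0.05 and array values from -0.327 to -0.224. The other regions called higher were C1, at 0.43 over 5 probes, and C8, C14 and C17, at 0.20 to 0.25. C10 and C18 were called under every alternative setting in which they could be measured. C21 was lost under 5 of 17, among them without array 2 and without array 4.

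In cluster A, both regions called higher rested on probes that match several places. A21 (21963052 to 21963505) gave 0.452, 0.462, 0.706 and 0.290 over 5 probes, of which 1 was single-match, and its mean count was 7.2. A15 (21114627 to 21117176) gave 0.135, 0.379, 0.485 and 0.301 over 23 probes. Its 8 single-match probes averaged 0.04 ± 0.18 and were not called (adjusted p = 0.736, limma). The regions called lower were mostly of single-match probes. A20 (21810310 to 21812759) gave -0.624, -0.386, -0.156 and -0.401 over 14 probes, and A3 (19633525 to 19635974) gave -0.174, -0.445, -0.256 and -0.350 over 25. The other regions called lower were A1, at -0.27, and A9, at -0.29, both of single-match probes only. A21 was called under all 13 alternative settings in which it could be measured. A15 was lost under 5 of 17 and A3 under 3, both of them without array 2 and without array 4, and A20 was lost under 2, among them arrays 3 and 4 alone. With single-match probes alone, the lowest of all cluster regions was A17 (21370095 to 21372257). It gave -0.731, -0.486, -0.230 and -0.342 over 9 probes, with a mean of -0.45 ± 0.22 (adjusted p = 0.0056, limma). With all 13 probes A17 stood at -0.17 ± 0.25 and was not called. E42 (63017593 to 63020251) likewise stood at -0.31 ± 0.25 over its 9 single-match probes and at -0.05 ± 0.20 over all 12.

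**Figure D2:**
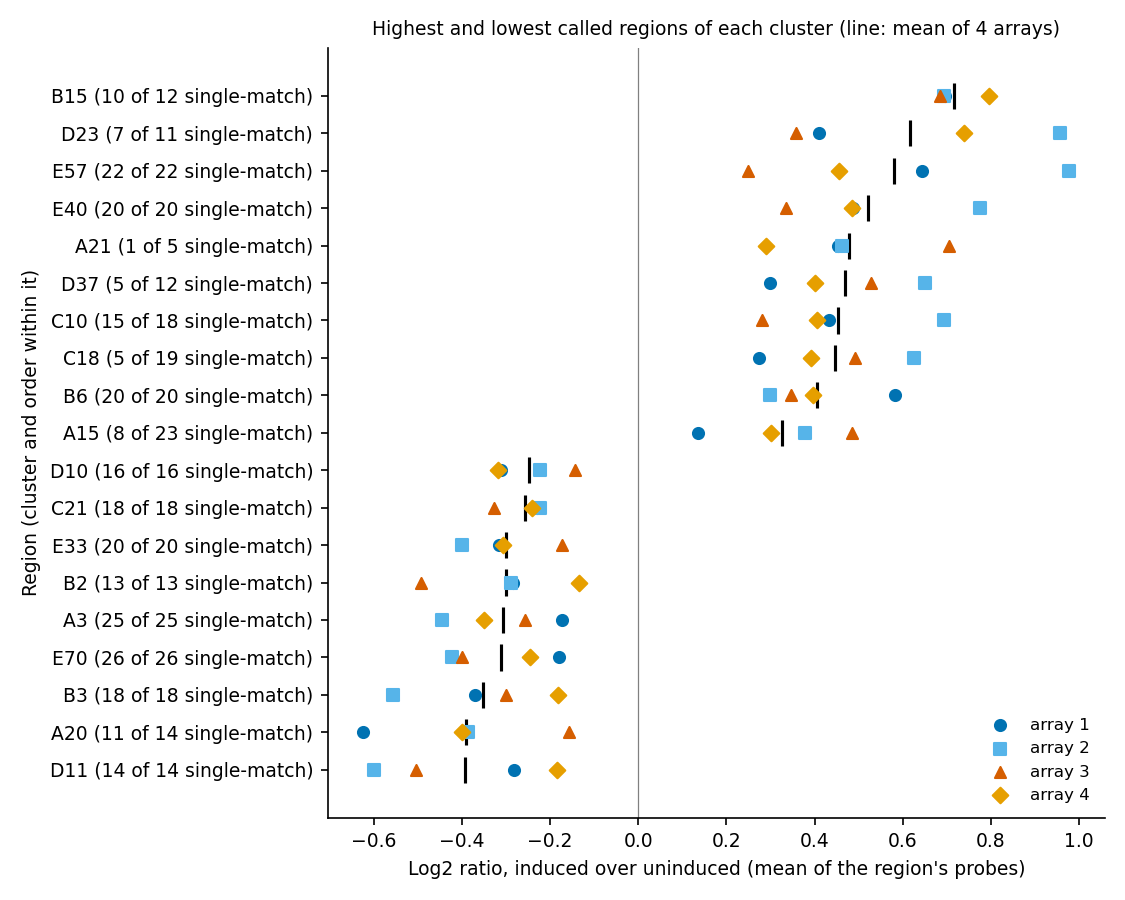
Log2 ratio in each of the 4 arrays (markers, horizontal axis) of the highest and lowest called regions of each cluster, with the mean as a line. B15 stands at the top with 4 values between 0.684 and 0.796, and several of the higher regions, such as A21, have few single-match probes.

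As groups, the clusters stood close to the rest of the chromosome. The 186 regions averaged -0.013, 0.070, 0.049 and 0.037 in arrays 1 to 4, and the 1011 other regions averaged 0.037, 0.095, -0.036 and 0.026. The difference was 0.005 ± 0.059 (SD, n = 4), above 0 in 2 arrays (exact two-sided sign-flip test p = 0.875). With 4 arrays the smallest p this test can give rounds to 0.13, so no difference of cluster means could pass a threshold of 0.05. The direction depended on the settings: the difference was -0.017 with single-match probes and -0.056 against the 232 regions within 1 Mb of the windows. It was -0.038 in arrays 1 and 2, whose file names carry N39, and 0.048 in arrays 3 and 4, whose names carry N44.

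Cluster B was the only one above the rest of chromosome 19 in all 4 arrays, and by little. Its difference was 0.073, 0.017, 0.065 and 0.044, with a mean of 0.05 ± 0.03 (exact sign-flip p = 0.13, adjusted over 5 clusters 0.469). Cluster C differed by 0.05 ± 0.08, cluster D by 0.04 ± 0.08 and cluster E by -0.01 ± 0.04, each within 1 SD of 0. Cluster D was below the rest with single-match probes (-0.03 ± 0.06), and clusters C and D were below the regions within 1 Mb of their windows (-0.08 ± 0.10 and -0.07 ± 0.06). Against such neighbouring regions, D and E were lower in all 4 arrays (E by 0.046, 0.112, 0.022 and 0.104), with exact sign-flip p = 0.13 and adjusted p = 0.208 each. Cluster B was higher than its neighbours in all 4 arrays, by 0.108, 0.029, 0.070 and 0.014, with the same p-values. The neighbours of E lay on its lower side only. No cluster passed these tests, and with 4 arrays none could at a threshold of 0.05.

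Cluster A had the lowest mean of the 5, with all probes and with single-match probes. Its regions averaged -0.228, -0.050, 0.057 and -0.029 with all probes, and -0.310, -0.155, -0.029 and -0.148 with single-match probes. All 4 arrays were below 0 in the second case, with array 1 lowest and array 3 nearest to 0. The single-match difference from the rest of the chromosome was -0.16 ± 0.15, below 0 in 3 arrays and 0.034 in array 3 (exact sign-flip p = 0.25). With all probes the difference was -0.09 ± 0.15 pooled and -0.21 in arrays 1 and 2. It did not hold in arrays 3 and 4, where it was 0.02. Without array 1 the difference was -0.04. Against the 23 regions within 1 Mb of the window it was -0.02 ± 0.16. With single-match probes, 7 of 26 regions (26.9%) were called lower and 0 higher by limma, where the rest of the chromosome had 13.8% lower and 11.8% higher. At an unadjusted p under 0.05 the count of higher regions was also 0, and 5 of 26 had means above 0. The 7 were A1, A3, A9, A17, A20, A22 and A23. In A22 array 2 stood at 0.014 (adjusted p of the region = 0.0429, limma). In A23 array 3 stood at 0.193 (adjusted p of the region = 0.0493, limma).

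Between clusters, 10 pairs were compared. Cluster A was below C by 0.205, 0.220, 0.031 and 0.131 and below D by 0.215, 0.147, 0.049 and 0.134 in arrays 1 to 4 (exact sign-flip p = 0.13 each, adjusted 0.417). Cluster B was above E in all 4 arrays, by 0.06 ± 0.03 (p = 0.13, adjusted 0.417, exact sign-flip test). In the other 7 pairs the arrays did not share a sign. With single-match probes, A was below B by 0.23 ± 0.15, below C by 0.23 ± 0.12 and below E by 0.15 ± 0.12, each in all 4 arrays (exact sign-flip p = 0.13, adjusted 0.208). By single-match probes B was also above D (0.09 ± 0.06) and E (0.08 ± 0.03), and C above D (0.09 ± 0.05), in all 4 arrays with the same p-values.

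**Figure D3:**
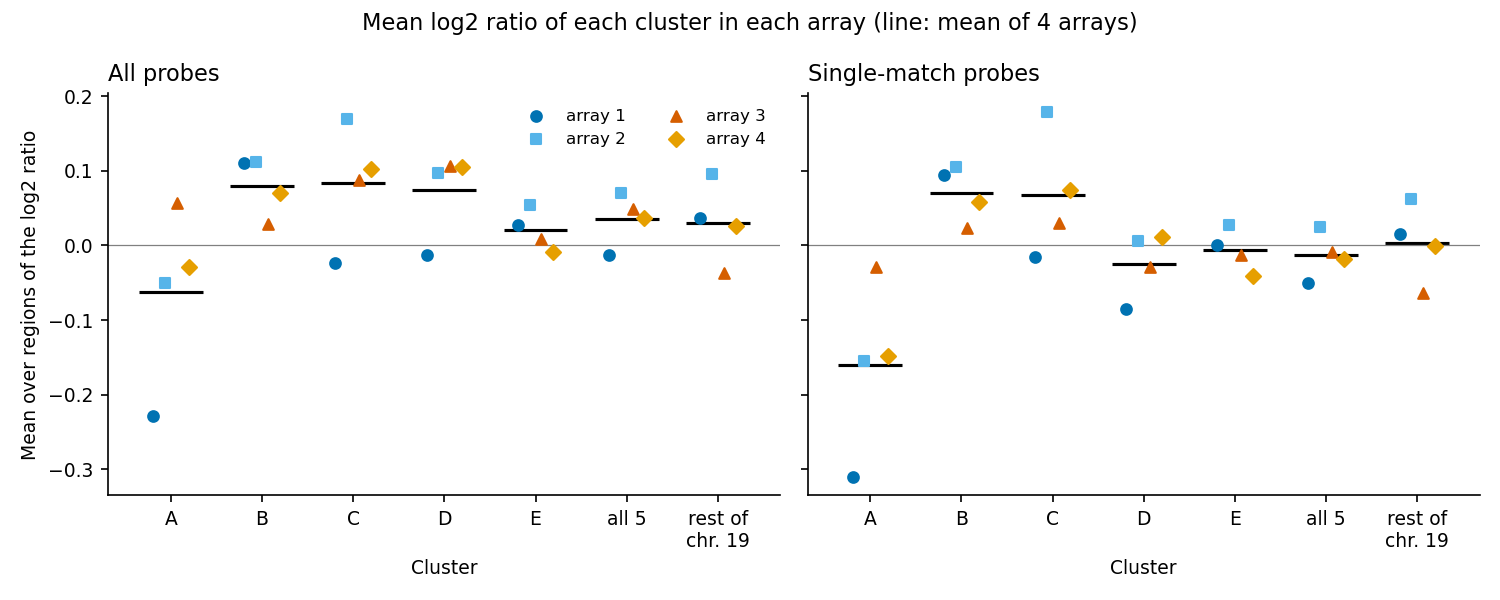
Mean log2 ratio over the regions of each cluster, of all 5 and of the rest of chromosome 19, in each array (markers) and over the 4 arrays (lines). Cluster A is lowest with all probes and with single-match probes, where its 4 arrays lie between -0.310 and -0.029.

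Inside the clusters, multi-match probes gave higher ratios than single-match ones. Pooled over the 5 clusters, however, they gave lower ratios than probes of the same count class elsewhere on chromosome 19. Such a probe reads all of its matching places at once, so its value cannot be given to 1 promoter. In the clusters the mean rose from -0.006 ± 0.025 over 2947 probes with a count of 1 to 0.17 ± 0.08 over 225 with a count of 2. It was 0.28 ± 0.14 over 98 probes with a count of 3 to 4, 0.50 ± 0.14 over 74 with 5 to 9 and 0.56 ± 0.20 over 39 with 10 or more. The same classes in the rest of the chromosome stood at 0.008 ± 0.059, 0.24 ± 0.10, 0.51 ± 0.11, 0.65 ± 0.16 and 0.90 ± 0.23. The clusters were below the rest in all 4 arrays for counts of 2, of 3 to 4 and of 10 or more, and in 3 of 4 for 5 to 9.

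Over all probes with a count above 1, the difference was -0.209, -0.282, -0.040 and -0.122, with a mean of -0.16 ± 0.11 (exact sign-flip p = 0.13, adjusted over 9 such differences 0.161). Array 3 showed the smallest difference. Whole regions were also compared. The 21 cluster regions with at least 50% of such probes averaged 0.15 ± 0.13, and the 49 in the rest averaged 0.43 ± 0.11. Of these, 5 of 21 (23.8%) were called higher in the clusters and 36 of 49 (73.5%) in the rest of chromosome 19. In both groups 0 were called lower by limma. At an unadjusted p under 0.05, 1 of the 21 and 0 of the 49 were lower. The share called among such regions of the whole array was not taken. Which of these shares is unusual is therefore not known here. The difference of the region means was -0.349, -0.394, -0.115 and -0.284 (mean -0.29 ± 0.12). The 21 regions ranged from A23, at -0.29, to A21, at 0.48, and 13 of them lay in cluster D. The single clusters did not all follow the pooled values. For a count of 2, cluster A stood at -0.06 ± 0.24 over 42 probes, D at 0.17 ± 0.08 over 71, E at 0.21 ± 0.06 over 71 and C at 0.27 ± 0.12 over 32. Cluster B stood at 0.57 ± 0.10 over 9 probes in that class, above the rest of the chromosome in all 4 arrays. For a count of 5 to 9, A stood at 0.40 ± 0.18 over 26 probes and D at 0.44 ± 0.16 over 34, below the 0.65 of the rest. In that class E stood at 0.99 ± 0.18 over 9 probes, above the rest in 3 of 4 arrays, and C at 0.86 ± 0.35 over 3 probes, above it in 2 of 4. Clusters A and D held most of the probes with counts of 3 or more. These comparisons were chosen after the classes had been seen. Probe length, which also differs between the clusters and the rest, was not balanced in them, and its part was not tested. Counts were not balanced within a class either: the highest was 36 in the clusters and 62 in the rest.

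**Figure D4:**
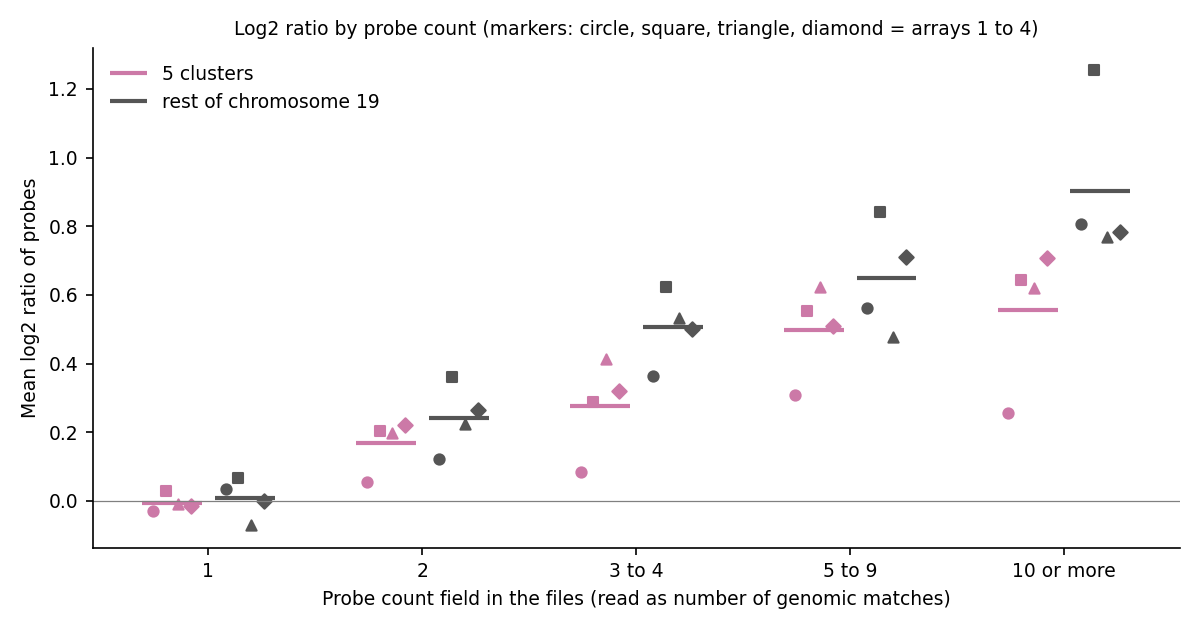
Mean log2 ratio of probes (vertical axis) by the count field (horizontal axis) in the 5 clusters and in the rest of chromosome 19, with 1 marker per array and lines for means of 4. Ratios are higher at higher counts in both, and from a count of 2 the means pooled over the 5 clusters lie below those of the rest.

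Pooled over the 5 clusters, single-match probes were also compared by length. At 50 bases the means were 0.03 ± 0.06 over 1946 cluster probes and 0.02 ± 0.08 over 15532 others. At 51 to 59 bases they were -0.10 ± 0.08 and -0.09 ± 0.07, and at 60 or more 0.002 ± 0.104 and -0.07 ± 0.09. The clusters differed among themselves. At 51 to 59 bases, cluster A gave -0.630, -0.522, -0.169 and -0.372 over 78 probes, below the rest of the chromosome in every array (-0.151, -0.146, -0.070 and -0.011). Cluster D stood at -0.17 ± 0.13 in that length class, E at -0.06 ± 0.07, C at -0.001 ± 0.097 and B at 0.01 ± 0.03. At 60 or more bases, D stood at -0.17 ± 0.18, A at -0.08 ± 0.33 over 14 probes, and E at 0.10 ± 0.09. At 50 bases, A stood at -0.06 ± 0.06 and B, C and D at 0.08 to 0.09. In the clusters 27.3% of single-match probes were of 51 to 59 bases, against 11.1% in the rest.

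Within the 2700 bp design regions, the mean ratio of cluster probes varied with the place of the probe. This is a description, and the profile as a whole was not tested. Single-match probes more than 900 bp below the region's centre, counted along the chromosome, gave 0.107, 0.180, 0.088 and 0.097 over 150 regions. Those 450 to 900 bp above the centre gave -0.236, -0.131, -0.162 and -0.165. The other 4 classes of 450 bp had means between -0.03 and 0.02. In the rest of chromosome 19, means of the 6 classes lay between -0.02 and 0.05. The clusters exceeded the rest by 0.10 ± 0.02 in the first class and fell short of it by 0.15 ± 0.06 in the second, each in 4 of 4 arrays (exact sign-flip p = 0.13, adjusted 0.161). Both classes were chosen after the profile had been seen.

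The upper class was below the lower one in 89 of 130 cluster regions (68.5%) with probes in both, and in 369 of 692 regions (53.3%) of the rest. Both classes had been picked as the extremes of the cluster profile, so a lean this way was built in for the clusters. The counts and cluster values given here describe the same probes and are no further test. The lower class was above 0 in every array in 4 clusters, at 0.24 ± 0.10 in B, 0.29 ± 0.09 in C, 0.22 ± 0.12 in D and, by less, 0.03 ± 0.01 in E. In cluster A it was -0.01 ± 0.12, with 2 arrays on each side of 0. The upper class was below 0 in every array in all 5 clusters, from -0.32 ± 0.12 in A and -0.26 ± 0.12 in C to -0.10 ± 0.05 in B. The files give no strand, so which side of a start site these classes fall on is not known here. Mean probe lengths of the 2 classes were 52.0 and 51.8 bases in the clusters and 50.7 and 50.8 in the rest.

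**Figure D5:**
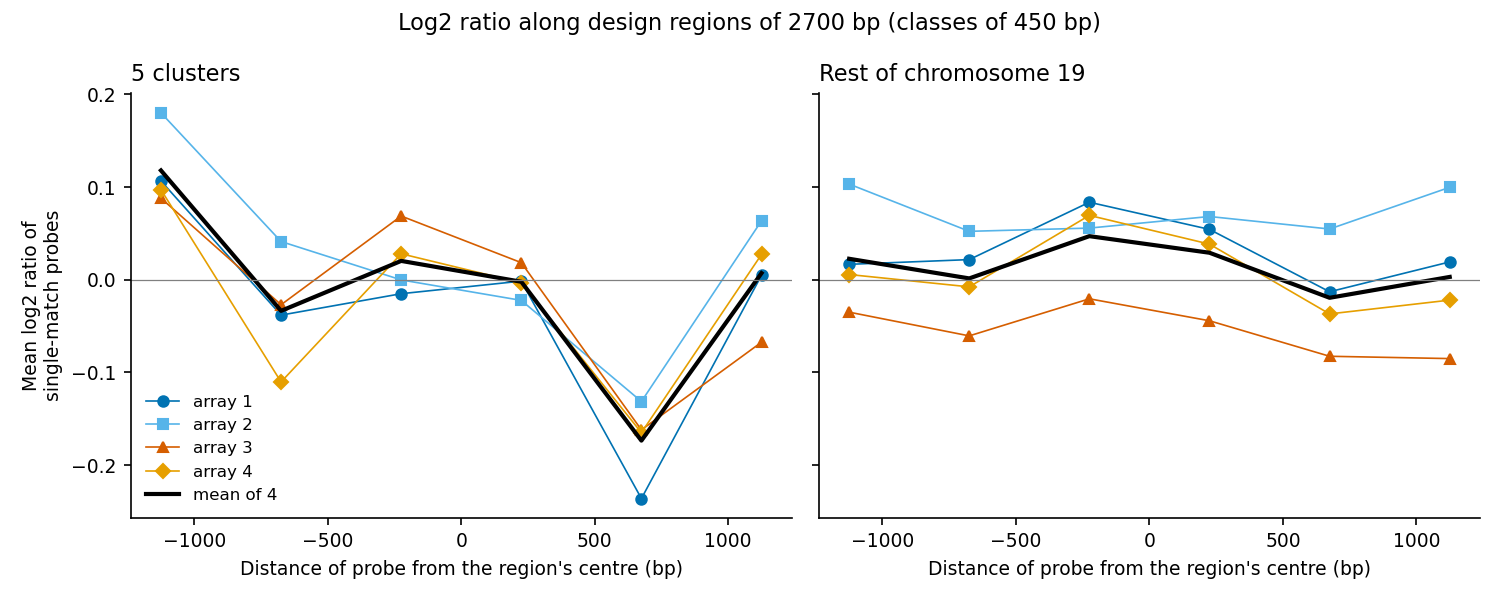
Mean log2 ratio of single-match probes (vertical axis) by distance from the centre of 2700 bp design regions (horizontal axis, classes of 450 bp) in the 5 clusters and the rest of chromosome 19, for each array and the mean of 4. The class 450 to 900 bp above the centre is the lowest of the cluster means, at -0.17.

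Narrower signal was sought in bins of 500 bp with at least 3 probes. Of 638 cluster bins, 133 were called higher and 88 lower (limma, adjusted p threshold 0.05), beside 17% and 16.3% of the 76092 bins of the whole array. In the clusters these counts made 20.8% and 13.8%, and in the rest of chromosome 19 the shares were 18.2% and 12.5%. With single-match probes 101 of 539 cluster bins (18.7%) were higher and 84 (15.6%) lower, beside 15.4% and 17.1% on the whole array and 15.4% and 13.6% in the rest. Adjacent called bins of 1 direction formed 110 higher sites in 93 regions and 80 lower sites in 73 regions. Most sites were 1 bin wide (88 higher, 72 lower), and 31 regions held sites of both directions. Sites were not counted in the rest of chromosome 19 or on the whole array. Whether these site counts are particular to the clusters is therefore not known here. Without array 2 the bin counts were 81 higher and 58 lower.

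The widest site, and the only one of 3 bins, lay in E57 at 63528496 to 63529845. Its 11 single-match probes gave 0.805, 1.390, 0.548 and 0.509, with array 2 highest. The sites named in this paragraph were chosen after their values were seen. In B6 the bin at 41757569 to 41758030 gave 1.286, 0.786, 0.818 and 1.348 over 5 single-match probes, with a mean of 1.06 ± 0.30. In region B4 the bin at 41671677 to 41672126 gave 1.623, 1.193, 0.780 and 0.428, a wide spread that stayed above 0. The lowest bin of single-match probes, at 49146740 to 49146996 in cluster C, gave -1.220, -0.980, -1.367 and -0.733, with a mean of -1.08 ± 0.28. Its whole region stood at 0.04 and was not called. The lower bin at 62371668 to 62371925 in cluster E (-0.99 ± 0.36) lay beside the highest bin of the clusters, at 62372168 to 62372628 (1.13 ± 0.48). The 3 probes of the higher bin had a mean count of 5, and the 3 of the lower one were single-match.

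The windows cut through 2 design regions. At the lower edge of cluster A, the part inside the window stood at -0.27 ± 0.08 over 17 probes and the part outside at 0.02 ± 0.29 over 5. At the lower edge of cluster C, the part inside stood at 0.43 ± 0.18 over 5 probes and the part outside at 0.24 ± 0.21 over 14. At the other edges, the regions just inside and just outside stood at -0.10 and -0.19 (upper edge of A), 0.04 and 0.17 (lower edge of B), and -0.10 and 0.36 (upper edge of B). They stood at -0.26 and 0.18 (upper edge of C), 0.16 and -0.05 (lower edge of D), 0.14 and -0.24 (upper edge of D), and 0.33 and 0.30 (lower edge of E). No region lay beyond the upper edge of E, whose last region stood at -0.08. The nearest region above cluster A started at 34395454, more than 10 Mb away.

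The arrays shared part of their pattern over the cluster regions. Pearson correlations between array pairs had a median of 0.562 over the 186 regions, from 0.337 to 0.666, and a median of 0.652 over the 1011 others. With single-match probes the medians were 0.496 over 177 regions and 0.613 over 979, and the lowest pairs 0.290 and 0.369. The regions are not independent replicates and share probe design and dye, so these values are descriptions. The ratios of neighbouring cluster regions had little in common: over single-match probes their correlation was -0.22 in cluster A (25 pairs), 0.29 in B (25 pairs), 0.09 in C (19 pairs), -0.03 in D (35 pairs) and 0.05 in E (68 pairs).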

How the data were processed

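The authors deposited for each of 4 arrays a log2 ratio of the Cy5 (induced) to the Cy3 (uninduced) signal of 386230 probes, written by NimbleScan, per the file headers and source column. The base of the logarithm is not written and was taken as 2. Each header gives a biweight mean (-1.05 to -0.586), read as already subtracted, since the deposited medians lie between -0.01 and 0. For NimbleScan's version, its background correction and the genome build, the sources used here give nothing. Channel intensities were not used here, so the depth of signal is unknown, and the number of arrays limits the precision.

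Each array was centred on its median and probes were averaged per design region (at least 5 probes). A region cut by a window edge counted as 2. Regions and 500 bp bins (at least 3 probes) of all chromosomes were tested against 0 by an intercept-only fit of limma 3.58.1 under R 4.3.3 (two-sided, Benjamini-Hochberg, threshold 0.05). The fit was also run on simulated independent regions with shifts of at least 0.5 log2 in size. Most cluster regions called here changed by less, so that run does not show how well such changes are recovered. Cluster differences were tested over arrays with an exact sign-flip test. Named regions are the 2 highest and 2 lowest called regions of each cluster with 1 sign in all arrays, and the 5 highest and 5 lowest by single-match probes. Members and lists were chosen with earlier results of these data known. Alternatives covered scaling, probe choice, probe length, moderation, comparator, bin size, arrays 1 and 2 alone, arrays 3 and 4 alone, and leaving out each array.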

Additional observations from a re-analysis of the deposited data

Results flagged for a closer look

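Dixon's test of a single outlying array was applied to 60 sets of 4 array values, and 4 exceeded its 95% critical value, where chance gives about 3. In region B15 array 4 gave 0.796, and the other arrays gave 0.684 to 0.695. For the mean of cluster D with all probes, array 1 gave -0.0131, and the others gave 0.0974 to 0.106. For cluster B minus cluster C, array 1 gave 0.133, and the others gave -0.0595 to -0.0319. For cluster C minus cluster D, array 2 gave 0.0725, and the others gave -0.018 to -0.0031.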

How the results depend on the processing

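Induced and uninduced DNA meet on each array, so each ratio is already a paired comparison. The arrays form 1 group, and no further pairing was made. The count of cluster regions called lower was 11 with arrays 1 and 2, 3 with arrays 3 and 4, 29 with array weights and 30 with single-match probes less the mean of each probe length, a setting chosen after seeing the data. Requiring a change of 0.5 log2 left 4 regions higher and 0 lower, against 28 and 17 from limma without it. With an array left out, 11 to 30 regions were higher and 2 to 20 lower (fewest without array 2), and 12 of the 45 called regions (11 higher, 1 lower) were called in all 4 of those fits. The share of higher calls was 62.2%, and 46.7% with single-match probes, 51.1% with trend and robust moderation and 87.5% with arrays 3 and 4. Bins called higher numbered 81 with 250 bp bins, and 81 to 119 with an array left out, where 57 to 93 were lower.

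The difference of all clusters from the rest of chromosome 19 turned to -0.0166 with single-match probes, -0.0081 with 10 or more probes, -0.0376 with arrays 1 and 2, -0.0011 with single-match probes less length means, -0.0558 against regions within 1 Mb and -0.0059 over probes. It ranged from -0.0215 to 0.0234 with an array left out. Cluster D turned to -0.0278 with single-match probes, -0.024 with arrays 1 and 2, -0.0072 with single-match probes less length means and -0.0702 against regions within 1 Mb, where cluster C turned to -0.0772. Cluster A turned to 0.0189 with arrays 3 and 4. Cluster E turned to 0.0005 with length means subtracted, 0.0043 with arrays 3 and 4, 0.0012 with single-match probes less length means and 0.013 against the other autosomes. Cluster B kept its direction in all 18 settings run.

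Between clusters, B minus D turned to -0.0154 with medians over probes, -0.001 with length means subtracted and -0.0563 with arrays 3 and 4, and ranged from -0.0329 to 0.034 with an array left out. B minus C turned to 0.0029 with single-match probes, 0.0079 with such probes of 50 bases, 0.0088 with 10 or more probes and 0.0373 with arrays 1 and 2 (-0.05 to 0.0142 with an array left out). D minus E turned to -0.0179 with single-match probes and -0.0084 after length means were also subtracted. A minus E turned to 0.0146 and C minus D to -0.0106 with arrays 3 and 4, and C minus D ranged from -0.0104 to 0.0198 with an array left out. For probes with a count of 1, the difference was 0.0229 with arrays 3 and 4 and -0.039 to 0.0029 with an array left out. The other differences by count and by place in the region kept their direction in the 6 settings run. The cause of these changes was not tested.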
